A study of Mus musculus with 6 samples.

Results

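The alpha and beta tubulins were followed as 10 genes of the 18444 listed in the liver libraries, 5 alpha (Tuba1a, Tuba1b, Tuba1c, Tuba4a and Tuba8) and 5 beta (Tubb2a, Tubb2b, Tubb4b, Tubb5 and Tubb6). These genes were chosen by name, with their measured values in the same libraries already known, so their levels and ratios are given as a description and no p-value is attached to any of them. The mice were male, labelled as C57BL/6 (C57BL/6J per the methods) and as 6 to 8 weeks of age. In the diet model, a standard diet (SD, labelled as a chow diet control), a high-fat diet (HFD, labelled NASH, non-alcoholic steatohepatitis) and HFD with JT003, a peptide agonist of the adiponectin receptors, were compared. Per the methods, the diets ran for 16 weeks and JT003 was injected at 500 μg/kg for the last 4 weeks. In the carbon tetrachloride (CCl4) model, CCl4 at 20% in corn oil, or corn oil alone, was injected at 5 ml/kg every 3 days for 6 weeks, and CCl4 with JT003 received 500 μg/kg for 3 weeks. CCl4 is a hepatotoxin that kills centrilobular hepatocytes and leads to fibrosis. Each condition has 1 library, from groups of 6 mice, and it is not stated whether the RNA of the mice of a group was pooled.

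Alpha and beta tubulin pair into the heterodimer that polymerizes into microtubules, the tracks along which hepatocytes move vesicles, secrete plasma proteins and traffic bile transporters, and the fibres of the mitotic spindle. Each is made from several genes, called isotypes, whose proteins differ mostly in an acidic carboxy-terminal tail. Cells also read the amount of free tubulin: when it is high, the TTC5 protein binds the first residues of tubulin emerging from ribosomes and the tubulin mRNAs are degraded.

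The isotype genes are so alike that short reads can be hard to assign, which bears on every value below. Between the coding sequences of Tuba1a, Tuba1b and Tuba1c, identity was 97.2% to 98.3%, and between Tubb2a and Tubb2b it was 96.5%. All other pairs within the alpha or the beta family were 79.3% to 85.4% identical. Of all windows of 50 bases in the transcript of a gene, 64.6% of those of Tuba1b, 59.8% of Tuba1c and 52.0% of Tuba1a also occurred in another of the 10 transcripts. The shares were 45.6% for Tubb2a and 33.4% for Tubb2b, 0.0385% for Tubb5 and 0 for Tuba4a, Tuba8, Tubb4b and Tubb6. Reads from the shared stretches were divided by the authors' counting program, so the split among Tuba1a, Tuba1b and Tuba1c, and between Tubb2a and Tubb2b, is uncertain. The expected counts of Tuba1a, Tuba1b, Tuba1c and Tubb2a were whole numbers (within 0.005) in 0 of 6 libraries, but so were those of Tuba4a and Tubb5, which share few or no such windows. The number was 1 for Tubb2b, 2 for Tubb4b, 3 for Tubb6 and 5 for Tuba8.

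The ends of the beta tubulin coding sequences, which encode the tails, are given to show how they differ from that of Tubb4b. Tubb6 was left out of these ends and of the coding starts below. The last 60 coding bases, stop codon included, are given from GENCODE vM21 transcripts matched to the RefSeq transcripts of the deposited tables. Capitals mark bases that differ from Tubb4b in an alignment of the whole coding sequences (deleted bases are not marked):
Tubb4b: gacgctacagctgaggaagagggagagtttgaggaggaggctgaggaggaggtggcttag
Tubb2a: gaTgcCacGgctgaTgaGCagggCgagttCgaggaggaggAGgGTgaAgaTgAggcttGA
Tubb2b: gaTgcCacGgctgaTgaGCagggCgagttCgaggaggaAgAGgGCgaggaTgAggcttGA
Tubb5: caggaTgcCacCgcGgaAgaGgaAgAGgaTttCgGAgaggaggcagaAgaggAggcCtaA

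Tubb2a, Tubb2b and Tubb5 each differed from Tubb4b by 17 of the 60 bases. The ends of Tubb2a and Tubb2b were close to each other but differed at a few bases. The first 12 coding bases encode the 4 residues read by TTC5. In Tuba1a, Tuba1b and Tuba1c they were the same sequence, atgcgtgagtgc, and in Tubb4b they were atgagggagatc, with other codons in each of the other sequences read.

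Over the whole series, a library held 19374255 to 20184578 counts after rounding, and the trimmed-mean (TMM) scaling factors were 0.884 to 1.089. Summed over 6 hepatocyte markers (Alb, Apoa1, Ttr, Apob, Cps1 and Asgr1), the level was 38849 to 51593 FPKM (fragments per kilobase of transcript and library size). Skeletal muscle markers summed to at most 0.120 FPKM and neuron markers to 1.76 to 3.57 FPKM. A gene is called here when an exact binomial test, conditional on the summed counts of a pair of libraries, gave an adjusted p-value under 0.001 and the log2 ratio of scaled counts was at least 1 in size. The test compares 2 libraries and not 2 conditions, and every interval is a 95% Clopper-Pearson interval that covers counting error only.

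The 10 tubulins together were expressed at 652 FPKM in CCl4, against 246 FPKM in corn oil and 221 FPKM in CCl4 plus JT003. In the diet model the sum was 232 FPKM in SD, 172 FPKM in HFD and 166 FPKM in HFD plus JT003. CCl4 stood above the other 5 libraries, which lay between 166 and 246 FPKM. These genes took 0.117% of the counts in CCl4 and 0.0317% to 0.0455% in the others. Fewer or more cells of a type and less or more RNA per cell cannot be told apart in such bulk RNA.

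The alpha sum was 118 FPKM with corn oil, 246 FPKM with CCl4 and 116 FPKM with CCl4 plus JT003, and the beta sum was 128, 406 and 106 FPKM in the same order. In the diet libraries the alpha sum stayed between 90.6 and 96.8 FPKM, whereas the beta sum was 136 FPKM in SD, 81.5 FPKM in HFD and 72.0 FPKM in HFD plus JT003. The alpha to beta ratio of FPKM was accordingly lowest in CCl4, at 0.61, and in SD, at 0.71. It was 0.93 in corn oil, 1.09 in CCl4 plus JT003, 1.11 in HFD and 1.31 in HFD plus JT003. Since FPKM divides by the length of each gene, these sums still depend in part on how shared reads were split, whereas sums of counts over a family do not.

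**Figure D1:**
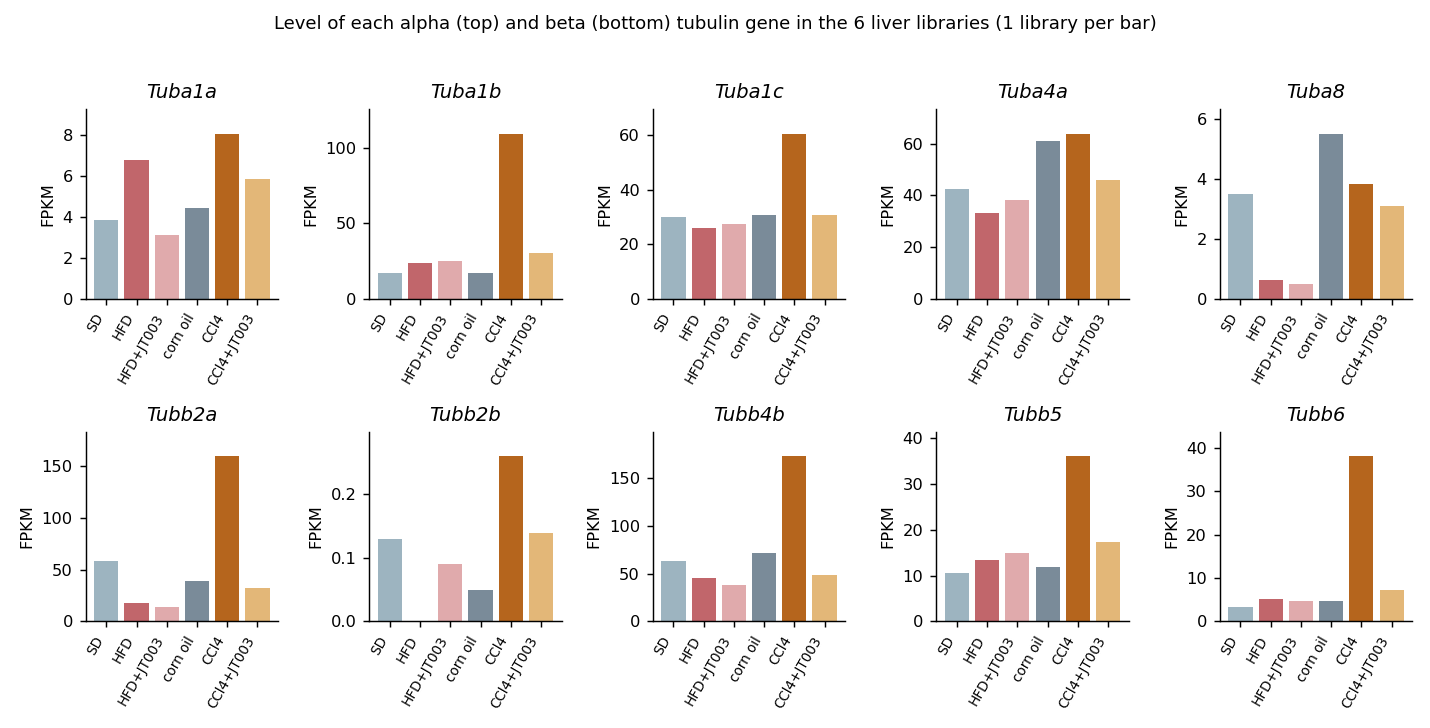
Level of each tubulin gene in the 6 liver libraries, with FPKM on the vertical axis (each panel has its own scale) and 1 bar per library. All genes but Tuba8 stand highest in CCl4, though Tuba4a only at 63.93 FPKM against 61.09 FPKM in corn oil. Tuba8 is at 0.62 and 0.48 FPKM in the HFD libraries, and Tubb2b is at 0.26 FPKM or less throughout.

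The isotypes that make up each family differed among the libraries. Tuba4a, an alpha isotype made without the terminal tyrosine that most others carry, held 51.6% of the summed alpha FPKM in corn oil and 43.9% in SD. In CCl4 it held 26.0%, and Tuba1b held 44.5%, against 14.1% in corn oil and 25.9% in CCl4 plus JT003. Among the beta tubulins, Tubb2a and Tubb4b together carried most of the level in each library. The share of Tubb2a was 43.0% in SD and 39.2% in CCl4, and 19.1% to 30.6% in the other 4 libraries. Tubb4b held 42.5% in CCl4 and 46.0% to 56.4% elsewhere. Tubb5 held 20.7% in HFD plus JT003, 16.5% each in HFD and in CCl4 plus JT003, and 7.81% to 9.32% in the other 3.

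**Figure D2:**
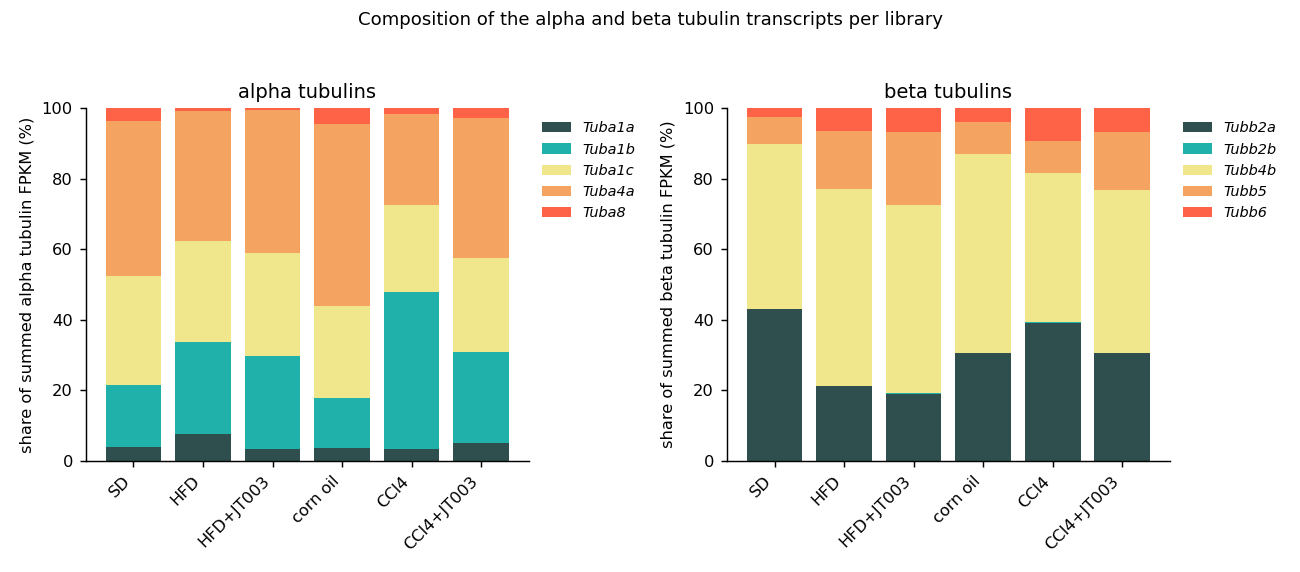
Share of each isotype in the summed FPKM of the 5 alpha (left) and 5 beta (right) tubulins, in percent, with 1 stacked bar per library. Tuba1b makes up 44.5% of the alpha sum in CCl4 and 14.1% in corn oil, and Tubb2a makes up 43.0% of the beta sum in SD and 21.3% in HFD.

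Between corn oil and CCl4, 5 of the 10 tubulins were called higher and 0 were called lower, where 4.76% of the 17236 genes tested were called higher and 2.41% lower. The median log2 ratio of the 10 was 1.19, and 1.02 without Tubb2b, against 0.00 over all genes tested. The genes called were Tubb6, Tuba1b, Tubb2a, Tubb5 and Tubb4b, so 4 of the 5 are beta tubulins. Scaling to total reads in place of TMM raised the median of all genes with at least 10 counts from 0.01 to 0.24, and the share of calls that were higher from 66.4% to 81.9%, so that the tubulin ratios are to be read relative to that shift.

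Tubb6, a beta isotype that destabilizes microtubules when made in excess, was at 4.80 FPKM in corn oil (169 counts), 38.1 FPKM in CCl4 (1387 counts) and 7.22 FPKM in CCl4 plus JT003 (253 counts). Its log2 ratio of CCl4 to corn oil was 2.74 (95% interval 2.52 to 2.99), the largest of the 10. The diet libraries, at 3.29 to 5.23 FPKM, lay near corn oil, and the libraries next to each other in the order CCl4 plus JT003, corn oil, HFD and HFD plus JT003 did not differ beyond counting error. Tuba1b, a widely made alpha isotype, was at 16.7 FPKM in corn oil (566 counts), 109 FPKM in CCl4 (3845 counts) and 29.9 FPKM in CCl4 plus JT003 (1012 counts), with a log2 ratio of CCl4 to corn oil of 2.47 (2.35 to 2.61).

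Tubb2a, an isotype best known from neurons but abundant in these livers, rose from 1239 counts in corn oil to 5248 in CCl4, a log2 ratio of 1.79 (1.70 to 1.88). Tubb5, the ubiquitous isotype of dividing cells, went from 617 to 1933 counts, with a log2 ratio of 1.36 (1.23 to 1.49). Tubb4b, the most abundant beta isotype by FPKM in all 6 libraries and a component of cilia as well as of cytoplasmic microtubules, went from 2236 to 5550 counts. Its log2 ratio of 1.02 (0.95 to 1.09) lay just past the threshold. Tuba1c, at 30.8 FPKM in corn oil and 60.7 FPKM in CCl4, lay under it, with a log2 ratio of 0.74 (0.64 to 0.84).

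Tuba1a, the alpha isotype of developing neurons and of migrating cells, had 138 counts in corn oil and 258 in CCl4, a log2 ratio of 0.61 (0.31 to 0.92). Tuba4a had 2520 and 2723 counts. Its log2 ratio was -0.18 under TMM scaling and 0.06 with total reads, so no direction can be given for it. Tuba8, an isotype best known from muscle and testis, had 158 counts in corn oil and 114 in CCl4, a log2 ratio of -0.75 (-1.12 to -0.40) that was not called. The alpha sum differed by a log2 ratio of 0.75 (0.70 to 0.80) and the beta sum by 1.44 (1.39 to 1.49).

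**Figure D3:**
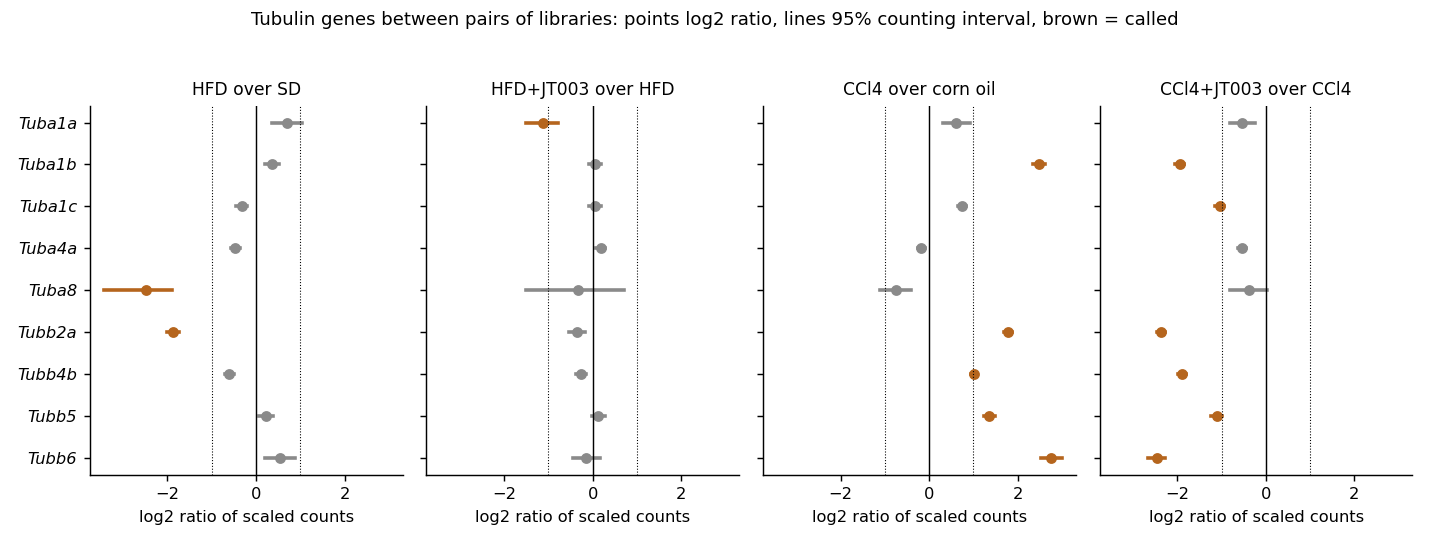
Log2 ratio of scaled counts for 9 tubulin genes (Tubb2b, with at most 10 counts per library, is left out) in 4 pairs of libraries, with points for the ratio, lines for the 95% counting interval, dotted lines at a ratio of 1 in size and brown for called genes. The called genes lie right of 0 for CCl4 over corn oil and left of 0 for CCl4 plus JT003 over CCl4, and Tubb2a and Tuba8 lie left of 0 for HFD over SD.

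Between CCl4 and CCl4 plus JT003, 6 of the 10 were called lower and 0 were called higher, beside 2.50% of 17393 genes called lower and 1.91% called higher. All 10 had a log2 ratio under 0, as had all 9 other tubulins tested (median -0.59). The median of the 10 was -1.08 (-1.11 without Tubb2b) against -0.00 over all genes tested. This comparison and that of CCl4 with corn oil use the same CCl4 library, so they are not independent of each other. Tubb6 fell by 2.46 on the log2 scale (interval -2.66 to -2.27) and Tubb2a fell by 2.36 (-2.46 to -2.27), from 5248 to 1025 counts. Tuba1b fell by 1.93 (-2.04 to -1.84) and Tubb4b by a like amount, with a ratio of -1.89 (-1.98 to -1.81).

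Smaller ratios were called for Tubb5, at -1.11 (899 counts against 1933), and for Tuba1c, at -1.04 (-1.15 to -0.94). Tuba4a, at -0.54 (-0.62 to -0.45), and Tuba1a, at -0.53 (-0.81 to -0.25), were not called. For Tuba8 the interval included 0, with 114 counts in CCl4 and 88 in CCl4 plus JT003. The alpha sum had a log2 ratio of -1.12 (-1.17 to -1.06) and the beta sum of -1.95, with 3688 counts against 14128.

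Set against corn oil, the CCl4 plus JT003 library had 1 member called lower, Tuba8 with 88 counts against 158, a log2 ratio of -1.12 (-1.54 to -0.76), where 1.72% of 17340 genes were called lower. Tubb4b, at 48.6 FPKM against 72.0 FPKM in corn oil, had a log2 ratio of -0.87 (-0.96 to -0.77), and Tuba4a, at 46.0 against 61.1 FPKM, a ratio of -0.71 (-0.80 to -0.63). Tuba1b was on the other side, with 29.9 FPKM against 16.7 FPKM and a log2 ratio of 0.54 (0.39 to 0.69). Under total reads the median of all genes in this pair moved from 0.02 to 0.32, and that of 9 members from -0.30 to -0.00.

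The authors also deposited a CCl4 column of pooled expected counts, whose total was 2.97 times that of the CCl4 library. Subtracting the CCl4 library left 39780568 counts, 1.97 libraries' worth, that the levels above did not use. Which libraries were pooled is inferred from the values and is not stated. For 24 genes the pooled value was below the CCl4 library, by 0.990 counts at most, and 0 of the 10 tubulins were among them. In these remaining counts, 4 of the 10 tubulins were called higher than in corn oil, where 7.12% of 17468 genes were called higher, and 1 was called lower, Tuba8, where 2.63% were called lower.

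Tubb6 was at 8.71 CPM (counts scaled to the library total) in corn oil, 68.8 in the CCl4 library and 48.1 in the remaining counts, and its log2 ratio of the remaining counts to corn oil was 2.14 (1.92 to 2.38). Tuba1b had a ratio of 1.90 (1.78 to 2.03), Tubb2a of 1.34 (1.25 to 1.43) and Tubb5 of 1.16 (1.04 to 1.29). Tubb4b, called in the CCl4 library, was not called here, at 0.53 (0.46 to 0.60). The CCl4 library was above the remaining counts for 8 of the 10 tubulins, with a log2 ratio of 0.42 (0.40 to 0.45) over their sum and 0 of them called. Of all 17471 genes tested in this pair, 40 were called higher and 252 lower. With so few calls over all genes, 0 among these 10 says little.

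Against the remaining counts, CCl4 plus JT003 had 4 tubulins called lower, beside 3.33% of 17555 genes. Those were Tubb2a at -1.91 (-2.01 to -1.82), Tubb6 at -1.86 (-2.06 to -1.68), Tubb4b at -1.40 (-1.49 to -1.33) and Tuba1b at -1.37 (-1.47 to -1.28). Tubb5 and Tuba1c, which were called against the CCl4 library, had ratios of -0.92 (-1.03 to -0.82) and -0.77 (-0.87 to -0.68). Tuba4a was at -0.05 (-0.13 to 0.03), so the interval included 0 where it had not against the CCl4 library. The remaining counts also differed from the CCl4 library in blood: Hba-a1, a haemoglobin subunit, had 2099 counts in the CCl4 library and 23626 in the remaining counts.

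**Figure D4:**
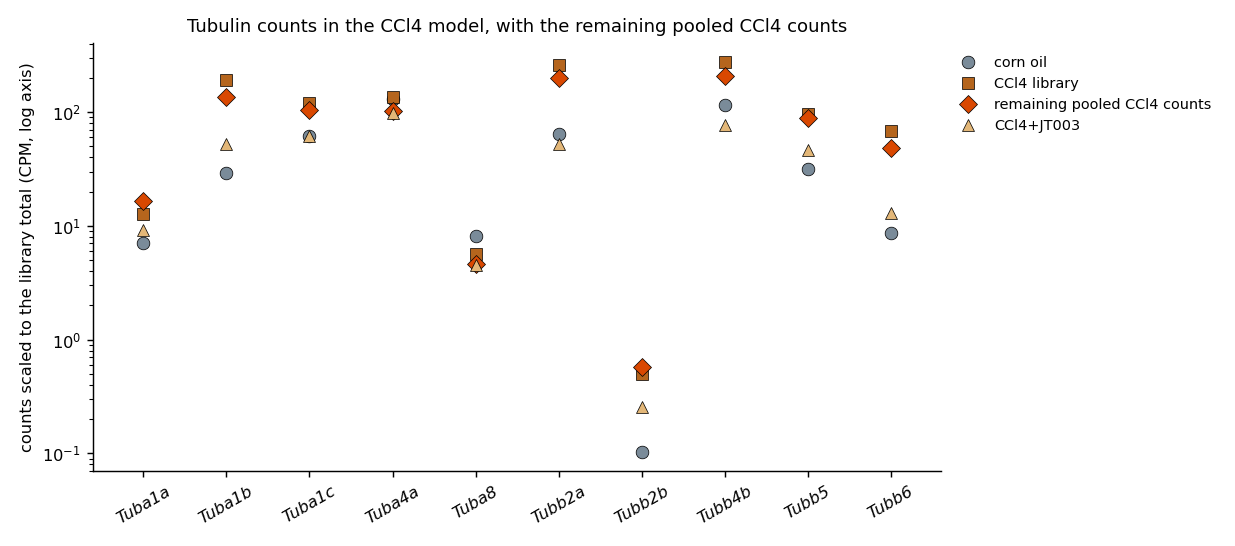
Counts scaled to the library total (CPM, log axis) of each tubulin gene in corn oil, in the CCl4 library, in the pooled CCl4 counts that remain after that library is subtracted, and in CCl4 plus JT003, with 1 symbol per source. For all genes but Tuba4a and Tuba8, both CCl4 symbols lie above corn oil and CCl4 plus JT003, and Tuba8 is highest in corn oil.

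In the diet model, 2 of the 10 tubulins were called lower in HFD than in SD and 0 were called higher, beside 2.47% of 16973 genes called lower and 2.92% called higher. With total reads, the share of calls that were higher went from 54.2% to 65.5%. Tubb2a was at 58.3 FPKM in SD (1924 counts), 17.3 FPKM in HFD (560 counts) and 13.8 FPKM in HFD plus JT003 (447 counts). Its log2 ratio of HFD to SD was -1.87 (-2.01 to -1.74). Among the 6 libraries Tubb2a was highest in CCl4, next highest in SD and lowest in HFD plus JT003, and all neighbours in that order differed beyond counting error.

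Tuba8 was at 3.50 FPKM in SD (104 counts), 0.62 FPKM in HFD (18 counts) and 0.48 FPKM in HFD plus JT003 (14 counts), and at 3.08 to 5.51 FPKM in the CCl4 model. The log2 ratio of HFD to SD was -2.49, with a wide interval of -3.43 to -1.89. Both HFD libraries lay below the other 4 beyond counting error in Tuba8, although few reads stand behind it, and also in Tubb2a and Tuba4a. Tubb4b had 2039 counts in SD and 1433 in HFD, with a ratio of -0.60 (-0.70 to -0.50), and Tuba4a had a ratio of -0.47 (-0.57 to -0.37). Neither of these was called.

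Ratios above 0 that were not called were found in HFD for 4 members. Tuba1a had 123 counts in SD and 213 in HFD, a log2 ratio of 0.69 (0.37 to 1.03). Tubb6 was at 0.54 (0.21 to 0.89), Tuba1b at 0.36 (0.20 to 0.51) and Tubb5 at 0.23 (0.06 to 0.39). Over the families, the beta sum had a ratio of -0.78 (-0.85 to -0.71) and the alpha sum of -0.24 (-0.31 to -0.17).

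Between HFD and HFD plus JT003, 1 of the 10 was called lower and 0 were called higher, where 0.883% of 17094 genes were called lower and 0.743% higher. This was Tuba1a, at 6.80 FPKM in HFD and 3.11 FPKM in HFD plus JT003, with a log2 ratio of -1.13 (-1.50 to -0.79). Its 98 counts in HFD plus JT003 were the lowest of the 6 libraries and its 213 in HFD were next to the 258 of CCl4, from which they did not differ beyond counting error. As 52.0% of the 50-base windows of the Tuba1a transcript also occur in another of the 10 transcripts, this value carries the uncertainty of the split. Tubb2a, at -0.35 (-0.53 to -0.17), and Tubb4b, at -0.26 (-0.37 to -0.15), were not called. Tuba4a lay on the other side, at 0.18 (0.08 to 0.29), and was not called either, and the intervals of Tuba1b, Tuba1c, Tuba8, Tubb5 and Tubb6 included 0. The alpha sum had a ratio of 0.06 (-0.01 to 0.13) and the beta sum of -0.16 (-0.24 to -0.08).

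Compared with SD, HFD plus JT003 had 2 members called lower, beside 2.76% of 17015 genes, namely Tuba8 at -2.83 (-3.93 to -2.20) and Tubb2a at -2.21 (-2.37 to -2.07). Tubb4b followed at -0.86 (-0.96 to -0.75) without being called. Tubb2b, the neural neighbour of Tubb2a on its chromosome, had 5 counts with SD, 0 with HFD and 3 with HFD plus JT003, and in the CCl4 model 2 with corn oil, 10 with CCl4 and 5 with CCl4 plus JT003. With so few reads no difference in Tubb2b was detectable at this depth, and counting error alone allows up to 3 counts where 0 were found.

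Among the other tubulins, the alpha and beta genes Tuba3a, Tubal3, Tubb1, Tubb3 and Tubb4a had 0 to 15 counts per library. Tubg1, the gamma tubulin that nucleates microtubules, had 450 to 641 counts and was not called in any of the 4 main comparisons. Tubd1, the delta tubulin of centrioles, was called higher in HFD (75 counts against 28 in SD) and in CCl4 (106 against 39 in corn oil), the only call among the 9 other tubulins tested in each of those pairs. In CCl4 over corn oil these 9 had a median log2 ratio of 0.54, with 7 above 0 and 2 below. In CCl4 plus JT003 over CCl4 the median was -0.59, with all 9 below 0, though several of them had few counts.

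Each gene list of the surrounding pathway, apart from that of mitosis, held few calls or none, to be read beside the share of all genes. That share was 4.76% called higher and 2.41% lower in CCl4 over corn oil, and 1.91% and 2.50% in CCl4 plus JT003 over CCl4. It was 2.92% and 2.47% in HFD over SD, and 0.743% and 0.883% in HFD plus JT003 over HFD. The lists are too short to set apart from these shares by a few calls. Of 21 genes that fold and assemble tubulin, such as the CCT chaperonin subunits and the tubulin cofactors, 0 were called in any of the 4 main comparisons by the binomial test, and their median log2 ratio was -0.14 in CCl4 over corn oil and -0.06 in CCl4 plus JT003 over CCl4. For Cct7, a chaperonin subunit, the counts were 1993 with corn oil, 2599 with CCl4 and 1796 with CCl4 plus JT003, with ratios of 0.09 and -0.54. The autoregulation genes, of which there were 3, had 0 calls, and Ttc5 had 161, 219 and 230 counts across the CCl4 model in the same order. Of 18 enzymes that modify tubulin, 1 was called higher in CCl4, Ttll12, with 306 counts against 117, and 1 lower in HFD, Ttll11, with 3 counts against 27. Neither JT003 comparison called any of these 18.

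Of 25 genes whose proteins bind microtubules or free tubulin, 2 were called higher in CCl4 (Stmn1 and Clip2) and 1 lower (Mapt, with 37 counts against 66), with a median log2 ratio of 0.03. Stmn1, which sequesters tubulin dimers and is made in proliferating cells, gave 145 counts with corn oil, 2032 with CCl4 and 340 with CCl4 plus JT003, at log2 ratios of 3.50 and -2.58. Clip2, a plus-end binding protein, had 61, 225 and 113 counts, and was called higher in CCl4, with a ratio of 1.57, but not lower with JT003, at -0.99. The 1 call with JT003 was Stmn1. In HFD, Stmn1 was called higher, with 196 counts against 88 in SD, and Mapre3, another plus-end protein, lower, with 709 against 1621. No gene of this list was called between HFD and HFD plus JT003.

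The 26 motors of transport along microtubules had 1 call in CCl4, the dynein light chain Dynll1 with 788 counts against 307, and a median of -0.01. With JT003 in the CCl4 model, Kif13b was called lower, with 151 counts against 319, and Kif5a higher, with 81 against 23. Of the cilia and centriole genes tested, 2 of 17 were called higher in CCl4, Plk4 and Stil, which are both needed to duplicate centrioles. For Plk4 the counts were 7, 137 and 16 across corn oil, CCl4 and CCl4 plus JT003. In the latter pair it was the 1 gene of 18 called lower and Cep152 the 1 called higher. Among 10 actins and other filament genes, Tmsb10 and Tagln2 were called higher in CCl4, where the median was 0.38 and 8 of 10 lay above 0. With JT003 in the CCl4 model 0 were called, with a median of -0.37 and 9 of 10 below 0. In HFD over SD and in HFD plus JT003 over HFD, 0 motors, 0 cilia and centriole genes and 0 of the filament genes were called. All 10 filament genes lay below 0 in HFD plus JT003 over HFD, with a median of -0.37. Compared with SD, HFD plus JT003 had 1 filament gene called lower, the hepatocyte keratin Krt18, with 2146 counts against 4417.

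The mitotic kinesins and spindle proteins were the exception. All 24 genes had a log2 ratio above 0 in CCl4 over corn oil, 22 of them called, with a median of 3.99, and 22 were called lower in CCl4 plus JT003 than in CCl4, with a median of -2.87. Kif20a, a kinesin of cytokinesis, gave 18 counts with corn oil, 728 with CCl4 and 44 with CCl4 plus JT003. Racgap1, which acts at the cleavage furrow, had 11, 510 and 20 counts, and Kif2c, which depolymerizes microtubule ends, 6, 231 and 12. In HFD over SD and in HFD plus JT003 over HFD, 0 of the 24 were called, with medians of 0.57 and 0.19.

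**Figure D5:**
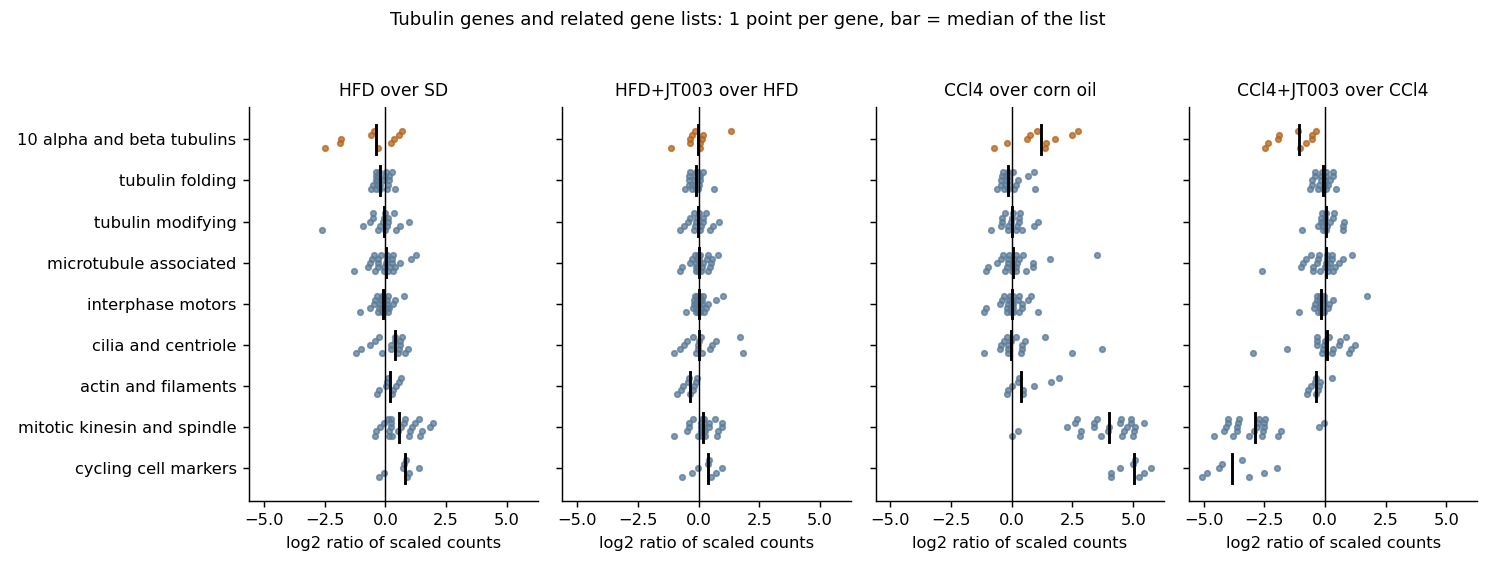
Log2 ratio of scaled counts of each gene in 9 lists (1 point per gene, bar at the median of the list) for 4 pairs of libraries. For CCl4 over corn oil the median is 1.19 for the tubulins, 3.99 for the mitotic genes and 5.04 for the cycling cell markers. It is 0.38 for the actin and filament list, while the medians of the folding, modifying, binding, motor and cilia lists lie between -0.14 and 0.03. The tubulin median includes Tubb2b.

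Markers of other cells moved in the same libraries, and their part in the tubulin levels was not tested. The 8 markers of cycling cells (Mki67, Top2a, Cdk1, Ccnb1, Cdc20, Plk1, Bub1 and Aurkb) summed to 1.71 FPKM in corn oil, 80.3 FPKM in CCl4 and 5.64 FPKM in CCl4 plus JT003, and to 0.930 to 2.11 FPKM in the diet libraries. All 8 were called higher in CCl4 and lower in CCl4 plus JT003. Bub1 was at 0 counts in corn oil. In the remaining pooled CCl4 counts, where 4 tubulins were called higher against 5 in the CCl4 library, all 8 were also called higher than in corn oil, with a median log2 ratio of 4.54 against 5.04 for the CCl4 library.

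Stellate cell and myofibroblast markers summed to 17.5 FPKM in corn oil, 72.9 FPKM in CCl4 and 39.2 FPKM in CCl4 plus JT003, with 3 of 10 called higher in CCl4 and 3 lower with JT003. In CCl4 over corn oil, 8 of the 10 lay above 0 and 2 below. Acta2 was among the latter, with 108 counts against 165 and a log2 ratio of -0.89 (-1.26 to -0.54). In SD, HFD and HFD plus JT003 the 10 markers summed to 17.9, 46.4 and 27.5 FPKM, with 6 of 10 called higher in HFD and 4 lower with JT003, the pair in which Tuba1a was called lower. Macrophage markers summed to 27.4 FPKM in corn oil, 86.8 FPKM in CCl4 and 101 FPKM in CCl4 plus JT003, with 5 of 6 called higher in CCl4 and 0 called with JT003. In the latter pair 3 of the 6 lay above 0 and 3 below. Against the remaining pooled CCl4 counts, CCl4 plus JT003 had 2 of the 6 called lower, Adgre1 at -1.21 and Cd68 at -1.06, beside 3.33% of all genes. Bile duct markers summed to 26.7, 105 and 106 FPKM in corn oil, CCl4 and CCl4 plus JT003, with 4 of 6 called higher in CCl4 and 1 called lower with JT003. In the diet model they summed to 16.1 to 26.1 FPKM, with 1 called, Krt19, which had 39 counts in HFD plus JT003 and 7 in HFD.

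The remaining marker lists had few calls, to be read beside the shares of all genes given above. Endothelial markers summed to 25.2 to 79.6 FPKM, neutrophil markers to 6.18 to 16.5 FPKM and T and B cell markers to 1.43 to 3.12 FPKM, and of these 1 endothelial marker was called lower in CCl4 and 1 higher in HFD. Red cell markers summed to 321 to 638 FPKM, with 2 of 3 called lower in HFD and 1 lower in CCl4. The adipocyte list went from 158 FPKM in SD to 23.9 FPKM in HFD and 6.86 FPKM in HFD plus JT003. The libraries HFD and HFD plus JT003 both had Tubb2a and Tuba8 called lower than in SD. In the CCl4 model, where Tubb2a was called higher in CCl4, the list went from 60.6 FPKM in corn oil to 14.7 and 6.40 FPKM. Nearly all of it was Cidec, a lipid droplet protein that hepatocytes also make, with 5423 counts in SD and 802 in HFD, while Adipoq was at 0 counts in the 3 diet libraries. Of the neuron markers, Syt1 was called higher in HFD, with 235 counts against 91. Of the hepatocyte markers, Cps1 was called lower in HFD, with 34490 counts against 72063.

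The genes most like the tubulins in pattern were sought among 10270 genes with at least 100 counts in a library, by the root mean square difference of log2(FPKM + 1), centred per gene, over the 6 libraries. Pmf1, a kinetochore protein, was nearest to the tubulin sum, with a difference of 0.118 log2 units and 10.3, 7.22 and 8.97 FPKM in SD, HFD and HFD plus JT003 and 12.3, 30.2 and 10.7 FPKM in corn oil, CCl4 and CCl4 plus JT003. Ube2s (0.174), Smarcd1 (0.176), Reep4 (0.182) and Slc34a2 (0.194) followed. Nearest to Tuba1a were Emp1, Krt8 and Col6a2. Krt8, a hepatocyte keratin, had 79.8, 126 and 77.2 FPKM in the diet libraries in the order given and 112, 180 and 117 FPKM in those of the CCl4 model. Nearest to Tuba8 were Dact2, G0s2 and Slc25a22, and nearest to Tubb5 were Ncaph, Incenp and Cenpt, which were at 3.71 FPKM or less in each library. Since the log2(FPKM + 1) scale compresses low levels, the likeness of such genes to Tubb5 does not carry over to their fold changes. The same holds for Slc34a2 and the tubulin sum, as Slc34a2 was at 2.66 FPKM in CCl4 and 0.07 FPKM in CCl4 plus JT003.

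Promoter sequences, 250 bases up to the transcription start, were read for 8 of the 10 genes (RefSeq, GRCm38.p6). Those of Tubb2b and Tubb6 were not among the sequences read. They were searched on both strands for the letters CCAAT (bound by NF-Y), TTTGAA (the cell cycle homology region), GGGCGG (a GC box) and TATAAA, among which no matches overlapped in the sequences shown. CCAAT was found in 4 of the 8 and in 33.8% of all 32851 promoters, GGGCGG in 5 of the 8 and in 32.7%. TTTGAA was found in 1 of the 8 and in 5252 of the 32851, and TATAAA in 1 of the 8 and in 12.4% of all. The promoters of Tubb4b and Tubb2a are shown with matches in capitals, since both genes were highest in CCl4 and their promoters share a GGGCGG match but differ in the others. They were the most abundant beta tubulins by FPKM in each library but HFD plus JT003, where Tubb5 (14.93 FPKM) exceeded Tubb2a (13.76 FPKM). A match of letters is a description and not a site.
Tubb4b, chr2:25224703-25224952, minus strand: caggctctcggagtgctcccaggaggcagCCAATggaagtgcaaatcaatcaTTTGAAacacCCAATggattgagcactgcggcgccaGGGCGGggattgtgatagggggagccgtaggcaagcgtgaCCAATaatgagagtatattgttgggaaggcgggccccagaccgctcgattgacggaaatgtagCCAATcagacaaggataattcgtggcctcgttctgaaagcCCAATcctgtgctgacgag
Tubb2a, chr13:34078009-34078258, minus strand: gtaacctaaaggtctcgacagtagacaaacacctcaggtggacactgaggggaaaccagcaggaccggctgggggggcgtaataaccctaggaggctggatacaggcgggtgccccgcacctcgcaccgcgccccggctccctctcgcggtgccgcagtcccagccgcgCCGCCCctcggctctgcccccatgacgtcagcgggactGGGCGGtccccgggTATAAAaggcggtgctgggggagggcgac

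Tubb4b carried 5 matches to CCAAT, a number reached or passed by 0.213% of all promoters, with 1 match each to TTTGAA and GGGCGG. Tubb2a carried a TATAAA match that begins 29 bases before the start, with 2 GC boxes before it. No match to the 4 searched sequences lay in the 250 bases of Tuba8. The submitters' processing notes name the build mm9, which is not that of these promoter sequences, and no coordinates were taken from the deposited tables.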

How the data were processed

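The genes and gene lists were chosen with earlier results of these data known. The authors deposited, for each of the 6 libraries, expected counts per gene, which are estimated reads without normalization, and FPKM values, which are the authors' counts scaled to transcript length and library size. The submitters' processing notes name HISAT, Bowtie2, RSEM and mm9, with no versions. Columns of fold changes and tests in the deposited comparison tables hold the authors' own comparisons and were not used, nor were 7 of their expression columns. The pooled CCl4 column of these tables holds expected counts by the authors.

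Expected counts were rounded, and TMM factors (edgeR 4.0.16 under R 4.3.3) were computed within each model, from its 3 libraries. The order of a gene over the 6 libraries, and whether neighbours in it differed beyond counting error, used TMM over 6 libraries instead. For every pair of libraries, the counts of all genes with 1 read or more entered an exact conditional binomial test, two-sided, in scipy 1.17.1, with Benjamini-Hochberg adjustment. Log2 ratios carry a prior count of 2. With 1 library per group, intervals cover counting error only, and no spread between mice could be estimated. Scripts were tested on simulated data. Named are the 10 tubulins and, in each pathway list, up to 4 genes with the largest log2 ratio in CCl4 plus JT003 over CCl4 among those that reached 100 counts in either library. Other called genes of the lists, and single markers, were named after their values were seen. Alternatives were total reads, DESeq2 1.42.0 size factors, TMM over 6 libraries, count minimums of 10 and 100, no threshold on the ratio, an adjusted p-value of 0.05, a coefficient of variation of 0.2 or 0.4 assumed in the exact test of edgeR, a prior count of 0.5, log2 of FPKM plus 1 or 0.1, and the pooled CCl4 counts. Sums over the families, and the remaining pooled counts against corn oil, were added after seeing the data.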

Additional observations from a re-analysis of the deposited data

Results flagged for a closer look

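Tubb2a, Tubb4b and Tuba1c lay in opposite directions in the 2 injury models. The log2 ratio of Tubb2a was -1.87 for HFD over SD and 1.79 for CCl4 over corn oil, that of Tubb4b was -0.60 and 1.02, and that of Tuba1c was -0.32 and 0.74. With the remaining pooled CCl4 counts over corn oil, the ratio was 1.34 for Tubb2a, 0.53 for Tubb4b and 0.46 for Tuba1c. With JT003 over the model, Tuba4a was at 0.18 in the diet model and -0.54 in the CCl4 model, where its ratio to the remaining counts was -0.05 (-0.13 to 0.03). In these 4 genes the counting intervals did not include 0 in either model, apart from that last value, with 1 library per group. The differences between the models were not tested, and the models also differ in their controls, duration and injections.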

How the results depend on the processing

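The 14 called ratios of tubulins in the 4 main comparisons kept their sign under the alternatives tried. Of 190 alternative values, 0 reversed and 11 were under 1 in size. Many of these could not reverse, because the count minimums, the missing threshold and the other adjusted p-value leave the ratio itself unchanged. The assumed coefficients of 0.2 and 0.4 also give the same ratio as each other. The count of tubulins called between SD and HFD was 2, and became 7 with no threshold on the ratio and 0 with an assumed coefficient of variation of 0.4. The count between HFD and HFD plus JT003 was 1, and became 2 with no threshold and 0 with an assumed coefficient of 0.2 or 0.4 and on the log2(FPKM + 1) scale. The count between corn oil and CCl4 was 5, and became 9 with no threshold and 0 with a coefficient of 0.4, and that between CCl4 and CCl4 plus JT003 was 6 and became 0 with 0.4. The other settings moved none of these 4 counts by more than 1.5 times. The spread between mice is assumed in the coefficient settings, since these libraries cannot show it. With total reads, the share of calls that were higher also moved from 53.4% to 66.6% in HFD plus JT003 over SD and from 65.2% to 85.7% in CCl4 plus JT003 over corn oil. No paired analysis was possible because each group has 1 library, and for the same reason no replicate could be left out. Depth limits Tubb2b, with at most 10 counts, and Tuba8, with 14 to 18 counts in HFD and HFD plus JT003.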
